A study of Mus musculus with 6 samples.

Results

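Mitochondrial carriers are the transport proteins of the inner mitochondrial membrane, and their level in liver was compared here between mice that had been fed and mice that had been fasted for 48 h. The members were chosen by a rule on gene names, set with earlier results of these data known. It took every protein-coding row of the deposited gene table whose symbol begins with Slc25a, together with Ucp1, Ucp2 and Ucp3. Slc25a1, Slc25a15 and Slc25a20 were set aside, since they are read with citrate, urea cycle and carnitine genes. This gave 43 genes of the 23631 rows in the table. Of these, 37 passed the filter on low counts and were tested, among 13248 tested genes in all.

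The carriers share a fold of repeated paired helices and exchange nucleotides, phosphate, carboxylic acids, amino acids, cofactors and metals between cytosol and matrix. In liver they stand at the points where gluconeogenesis, the urea cycle, fatty acid oxidation and heme and iron-sulfur synthesis cross the mitochondrial membrane. Some substrates are served by a pair of close relatives, of which one is often the main liver form, and several members still have no settled substrate.

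The 6 libraries were made from total liver RNA of male C57BL/6J mice, an inbred laboratory strain, 3 from the refed group and 3 from the group fasted for 48 h. The labels name no allele or agent for either group and state no age. The sample labels call the first group re-fed, while the treatment protocol describes normally fed animals, so the feeding history of the refed group is uncertain. Whether each sample came from a separate animal is not stated, so the p-values reflect sample-to-sample spread that may be technical. Total counts per library lay between 29574528 and 36026753. Levels are given as CPM, which are counts scaled to TMM-adjusted library sizes. The floor of 3 counts per library lies at 0.0844 to 0.0946 CPM.

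The hepatocyte markers listed for the tissue check, Alb among them, summed to 84570 to 101200 CPM in refed and 115500 to 133600 CPM in fasted libraries. Of the 6 markers, Cps1, Tat, Apoa1 and Hnf4a rose, Ttr fell and Alb did not pass (edgeR log2 fold change 0.06 with SE 0.18, adjusted p = 0.795). Among markers of other liver cells, the endothelial Lyve1 and Pecam1 and the fibroblast gene Dcn rose, with log2 fold changes of 2.55, 0.72 and 1.43. The stellate and fibroblast genes Lrat and Col3a1 fell, with -1.74 and -2.44. The endothelial Stab2, Cdh5 and Kdr and the stellate and fibroblast genes Col1a1 and Reln did not pass. Of the bile duct markers, Sox9 and Epcam rose, with 0.98 and 0.94, and Krt7 and Krt19 did not pass. The Pecam1 and Epcam calls were not kept under every alternative. The part of these cell types in the carrier results was not tested. Fasted replicate 3 stood apart from the other fasted libraries, with a chi-square per gene of 236 and 211 against fasted replicates 1 and 2, which differed from each other by 35.7. It also carried the neutrophil genes S100a8, S100a9 and Ngp at 49.0, 71.4 and 36.3 CPM, against at most 0.838 CPM in any other library. Ly6g, the other neutrophil gene looked up, had only 0.03 CPM in fasted replicate 3 and no reads elsewhere. The part of neutrophils in the results below was not tested. Values without fasted replicate 3 are given for each carrier whose call changed or whose called value moved by over 1.5 times. Both groups are bulk tissue, in which fewer cells of a type and less RNA per cell cannot be told apart.

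More carriers were higher than lower in fasted liver. Of 37 tested members, 22 were called higher, 8 lower and 7 did not pass (edgeR quasi-likelihood test, Benjamini-Hochberg adjusted p under 0.05 over all tested genes). Among all tested genes, 59.4% were called, 29.2% as higher and 30.2% as lower, against 81.1%, 59.5% and 21.6% of the tested members. The members were chosen with earlier results of these data known, so the shares and medians given here are descriptions only. The median log2 fold change, fasted minus refed, was 0.61 over the members and 0.00 over all tested genes. A change of at least 2-fold was called in 15 members that rose and 6 that fell, which is 56.8% of the tested members, where 31.7% of all tested genes were so called. The CPM values of the 2 groups did not overlap in 30 of the 37 members, or 81.1%, and in 67.2% of all tested genes. When libraries were scaled by their totals alone, 18 members were higher and 9 lower, and all genes split into 2873 higher and 5074 lower around a median of -0.21, against a median of 0.40 for the members.

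**Figure D1:**
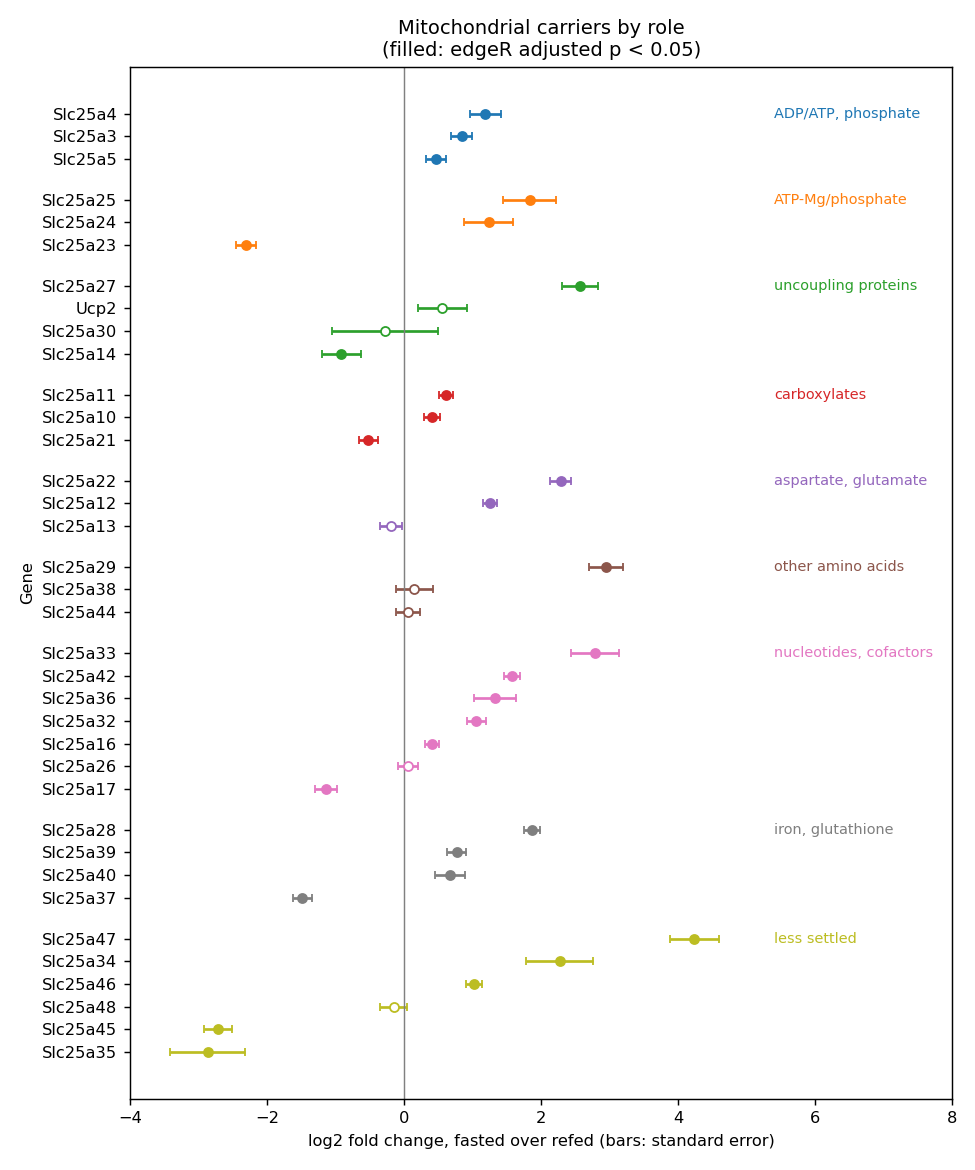
Log2 fold change of fasted over refed liver for 36 of the tested carriers, grouped by role and sorted within each role. Bars are standard errors of the edgeR fit, and filled points passed at an adjusted p under 0.05. Slc25a47 lies farthest to the right at 4.24, and Slc25a23, Slc25a45 and Slc25a35 lie farthest to the left.

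Reads of the whole family together came to 2888, 2869 and 2912 CPM in refed replicates 1 to 3 and to 10140, 9149 and 6417 CPM in fasted replicates 1 to 3. Every fasted library lay above every refed one. A single gene accounted for much of this: Slc25a47 took 8.05% ± 2.50 of the family's reads in refed and 50.2% ± 6.81 in fasted liver (SD, n = 3). With Slc25a47 left out, the family summed to 2657 ± 57.8 CPM in refed and 4177 ± 437 CPM in fasted liver (SD, n = 3).

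Slc25a47, a carrier found almost only in liver whose substrate is not settled, rose more than any other tested member. It stood at 177, 206 and 317 CPM in refed replicates 1 to 3 and at 5690, 4743 and 2744 CPM in fasted replicates 1 to 3. The lowest fasted library, replicate 3, was still far above the highest refed one. The change was 18.9-fold (edgeR log2 fold change 4.24 with SE 0.36, adjusted p = 5.6e-05). Its neighbour Slc25a29, a carrier of basic amino acids such as arginine and lysine, rose 7.70-fold. Its values were 2.40, 2.76 and 2.24 CPM in refed and 16.3, 14.8 and 26.0 CPM in fasted replicates 1 to 3, with the groups well apart and fasted replicate 3 the highest (edgeR log2 fold change 2.94 with SE 0.24, adjusted p = 4.07e-05). So Slc25a47 was lowest and Slc25a29 highest in fasted replicate 3 among the fasted libraries.

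Both genes lie on chromosome 12 of the deposited mm9 coordinates, Slc25a29 (ENSMUSG00000021265) from 110064083 to 110074093 and Slc25a47 (ENSMUSG00000048856) from 110089339 to 110095024, with a gap of 15.2 kb. In RefSeq annotation of GRCm38.p6 they are transcribed away from each other, and 1 gene, Mir345, is listed between them. The pair was singled out after its values were seen. The 250 bases before the listed start of each are shown because these are the members with the largest rises and they share a neighbourhood (RefSeq, GRCm38.p6; 5′ to 3′ on the gene's strand). Capitals mark letters that match one of the searched motifs.
Slc25a47 (chr12:108850879-108851128, plus strand): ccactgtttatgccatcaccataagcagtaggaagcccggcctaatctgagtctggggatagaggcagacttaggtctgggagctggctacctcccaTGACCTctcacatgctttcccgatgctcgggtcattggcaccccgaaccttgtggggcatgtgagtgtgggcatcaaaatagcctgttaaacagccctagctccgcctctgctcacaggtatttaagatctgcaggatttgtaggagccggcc
Slc25a29 (chr12:108835877-108836126, minus strand): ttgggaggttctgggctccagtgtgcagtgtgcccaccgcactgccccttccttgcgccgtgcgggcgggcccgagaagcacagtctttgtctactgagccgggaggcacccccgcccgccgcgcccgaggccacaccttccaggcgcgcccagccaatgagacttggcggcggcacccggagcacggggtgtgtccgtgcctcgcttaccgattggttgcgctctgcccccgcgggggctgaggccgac

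Each promoter of this length was searched on both strands for the full cAMP response element (TGACGTCA), its half-site (TGACG, which the full element contains), the E-box (CACGTG) and the nuclear receptor half-site (AGGTCA). The capitals in the Slc25a47 promoter are a nuclear receptor half-site on the opposite strand, and these letters are in 14.0% of the 32536 distinct promoters in the table. None of the searched motifs is in the window of Slc25a29. A match is only a description of letters and not evidence of binding.

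The calcium-regulated ATP-Mg/phosphate carriers, which adjust the adenine nucleotide pool of the matrix, moved in opposite directions. Slc25a25 had 148, 151 and 135 CPM in refed replicates 1 to 3 and 664, 662 and 221 CPM in fasted replicates 1 to 3. Fasted replicates 1 and 2 were almost equal, while fasted replicate 3 was at 0.334 times their mean, though still above each refed library. It rose 3.56-fold (edgeR log2 fold change 1.83 with SE 0.39, adjusted p = 0.00493), with a log2 fold change of 2.20 without fasted replicate 3. Slc25a23 went the other way, from 279.5, 286 and 302 CPM in refed to 49.4, 61.5 and 64.5 CPM in fasted replicates 1 to 3. All fasted values lay below all refed values, and the fall was 4.95-fold (edgeR log2 fold change -2.31 with SE 0.14, adjusted p = 1.09e-05). Slc25a24, the third relative, was low in every library, at 0.568, 0.647 and 0.738 CPM in refed and 2.25, 0.963 and 1.40 CPM in fasted replicates 1 to 3. It rose (edgeR log2 fold change 1.23 with SE 0.36, adjusted p = 0.0167), a call that was lost without refed replicate 1, refed replicate 2 or fasted replicate 1 (edgeR adjusted p = 0.0566, 0.0537 and 0.0575; range over all alternatives 0.00735 to 0.0575).

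Slc25a25 (ENSMUSG00000026819) lies on chromosome 2 from 32270007 to 32306965 and Slc25a23 (ENSMUSG00000046329) on chromosome 17 from 57183134 to 57199286 (mm9). RefSeq lists 3 starts for Slc25a25. The promoter shown was picked as the one of the 3 that holds a full cAMP response element, in capitals. The first bases after its start were not found in a GENCODE M21 transcript. Neither of the other windows holds a searched motif, and only the start next to chr2:32431152-32431401 had its first bases in such a transcript. Beside the picked window stands the first of 2 listed Slc25a23 promoters, in which none of the searched motifs was found (RefSeq, GRCm38.p6). They are shown because these relatives moved in opposite directions.
Slc25a25 (chr2:32424067-32424316, minus strand): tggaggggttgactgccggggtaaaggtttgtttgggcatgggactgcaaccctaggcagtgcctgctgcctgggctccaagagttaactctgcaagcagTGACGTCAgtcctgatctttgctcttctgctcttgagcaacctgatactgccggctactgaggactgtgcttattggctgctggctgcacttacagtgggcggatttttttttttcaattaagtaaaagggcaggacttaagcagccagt
Slc25a23 (chr17:57059864-57060113, minus strand): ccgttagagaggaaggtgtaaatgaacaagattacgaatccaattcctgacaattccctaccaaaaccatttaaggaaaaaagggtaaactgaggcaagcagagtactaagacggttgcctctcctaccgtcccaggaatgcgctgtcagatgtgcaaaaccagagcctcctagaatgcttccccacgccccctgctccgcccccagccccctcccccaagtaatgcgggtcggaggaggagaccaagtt

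The full element is in 1.56% of the 32536 distinct promoters in the table. Among the carriers, 34 had at least 1 promoter in the table, with 42 promoters between them. The full element was found in those of Slc25a25 and Slc25a36, or 4.76% of the 42 promoters. The half-site was in 28.6% of them, from 11 carriers, against 17.9% of all promoters. The E-box was in 14.3%, from 5 carriers, against 6.04% of all, and the nuclear receptor half-site in 14.3%, from 6 carriers. Carriers with the half-site included Slc25a14, which fell, and Slc25a13 and Ucp2, which did not pass. These shares were not tested.

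**Figure D2:**
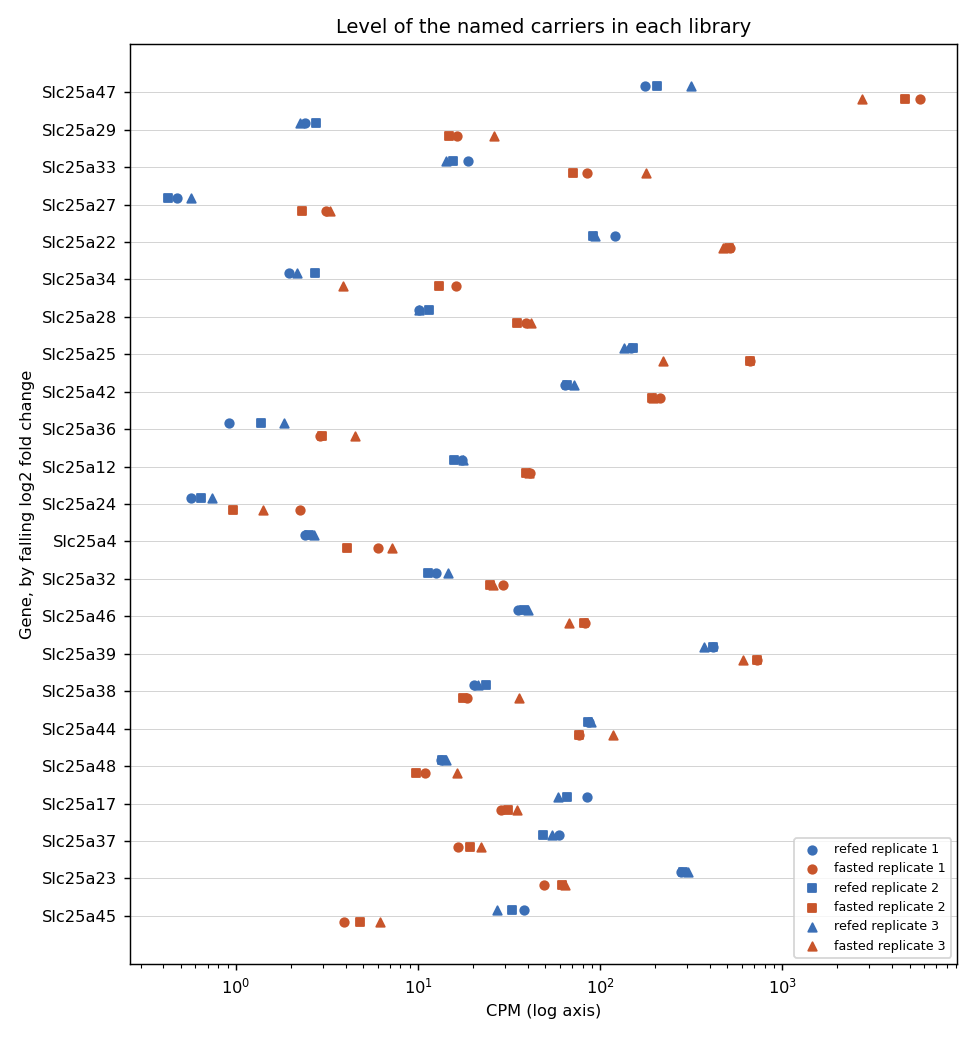
CPM in each of the 6 libraries on a log axis for 23 of the carriers named by rule, ordered from the highest to the lowest log2 fold change. Blue points are refed and orange points fasted libraries, and the marker shape gives the replicate number. Groups are separate in all those shown but Slc25a38, Slc25a44 and Slc25a48.

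Among the 3 tested carriers of glutamate and aspartate, the glutamate carrier Slc25a22 had the largest log2 fold change. Its values were 120.4, 91.1 and 94.1 CPM in refed and 513, 508 and 471 CPM in fasted replicates 1 to 3. The fasted libraries lay close together and all above the refed ones, at a 4.88-fold rise (edgeR log2 fold change 2.29 with SE 0.15, adjusted p = 1.64e-05). Slc25a12 and Slc25a13 both exchange aspartate for glutamate, a step of the malate-aspartate shuttle, and Slc25a13 (citrin) is the form known as the main one in liver. Slc25a12 had 17.5, 15.8 and 17.6 CPM in refed and 41.4, 39.4 and 40.5 CPM in fasted replicates 1 to 3. This 2.38-fold rise was well beyond the spread within each group (edgeR log2 fold change 1.25 with SE 0.10, adjusted p = 3.45e-05). Slc25a13 had 248, 262 and 298 CPM in refed and 248, 269 and 191 CPM in fasted replicates 1 to 3, overlapping ranges, and did not pass (edgeR log2 fold change -0.19 with SE 0.16, adjusted p = 0.336). With library totals it was called lower (log2 fold change -0.41, edgeR adjusted p = 0.0418; range over all alternatives 0.0418 to 0.993). Slc25a18, the second glutamate carrier, did not reach the filter, with 2, 0 and 1 reads in refed and 7, 8 and 16 reads in fasted replicates 1 to 3. In the authors' deposited table it had a log2 fold change of 2.32 and an adjusted p of 0.00057.

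Of the other amino acid carriers, Slc25a38, the glycine carrier that feeds heme synthesis, and Slc25a44, a carrier of branched-chain amino acids, did not pass. Slc25a38 stood at 20.3, 23.6 and 21.4 CPM in refed and 18.6, 17.7 and 36.0 CPM in fasted replicates 1 to 3 (edgeR log2 fold change 0.15 with SE 0.27, adjusted p = 0.66). Slc25a44 stood at 86.6, 85.7 and 89.3 CPM in refed and 76.8, 77.0 and 117 CPM in fasted replicates 1 to 3 (edgeR log2 fold change 0.05 with SE 0.17, adjusted p = 0.811). In both genes fasted replicate 3 was above every refed library, while fasted replicates 1 and 2 were below every refed library. Without fasted replicate 3 their log2 fold changes were -0.26 and -0.18, and neither passed (edgeR adjusted p = 0.0734 and 0.129; range over all alternatives 0.0734 to 0.972 and 0.129 to 1). Slc25a2, an ornithine carrier, had 1 to 4 reads in each library and was not tested.

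Iron enters mitochondria through the mitoferrins, and these too went in opposite directions. Slc25a28 (mitoferrin 2), the widely expressed form, had 10.2, 11.5 and 10.1 CPM in refed and 39.3, 34.8 and 42.0 CPM in fasted replicates 1 to 3. It rose 3.65-fold with no overlap between the groups (edgeR log2 fold change 1.87 with SE 0.12, adjusted p = 1.39e-05). Slc25a37 (mitoferrin 1), known for its role in red cell precursors, had 59.8, 48.5 and 54.1 CPM in refed and 16.5, 19.4 and 22.2 CPM in fasted replicates 1 to 3. All fasted values were lower, by 2.79-fold (edgeR log2 fold change -1.48 with SE 0.14, adjusted p = 7.29e-05). Of the 6 erythroid markers looked up, Alas2 fell and Klf1 rose, and Hemgn, Slc4a1 and Rhag had at most 0.274 CPM in any library. The summed level of these markers was 90.7 to 124 CPM in refed and 18.3 to 29.4 CPM in fasted libraries, most of it Alas2, at 89.5, 122 and 123 CPM in refed and 14.1, 18.8 and 22.2 CPM in fasted replicates 1 to 3. The part of red cell precursors in the fall of Slc25a37 was not tested.

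The glutathione carriers Slc25a39 and Slc25a40, which supply the matrix with its main thiol antioxidant, both rose. Slc25a39 had 418, 418 and 374 CPM in refed and 726, 725 and 608 CPM in fasted replicates 1 to 3, with no overlap (edgeR log2 fold change 0.77 with SE 0.14, adjusted p = 0.00194). Slc25a40 rose from 3.00 ± 0.378 to 4.78 ± 1.16 CPM (SD, n = 3; edgeR log2 fold change 0.67 with SE 0.22, adjusted p = 0.0285). That call was lost with library totals and without refed replicate 2, refed replicate 3, fasted replicate 1 or fasted replicate 2 (edgeR adjusted p = 0.0979, 0.0936, 0.101 and 0.0608 for those libraries in turn; range over all alternatives 0.00422 to 0.19).

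Nucleotide and cofactor carriers were the largest role group, with 8 members tested, of which 5 rose and Slc25a26 did not pass. Among all tested genes, 29.2% were called higher and 30.2% lower. Slc25a33 and Slc25a36, which carry pyrimidine nucleotides for mitochondrial DNA and RNA, both rose. Slc25a33 had 18.7, 15.6 and 14.2 CPM in refed and 85.1, 71.3 and 178 CPM in fasted replicates 1 to 3, with fasted replicate 3 at more than 2 times the other fasted libraries (edgeR log2 fold change 2.79 with SE 0.35, adjusted p = 0.000426). Slc25a36 rose from 1.38 ± 0.466 to 3.47 ± 0.929 CPM (SD, n = 3; edgeR log2 fold change 1.32 with SE 0.31, adjusted p = 0.00617). Slc25a42, the coenzyme A carrier, had 64.0, 66.1 and 71.6 CPM in refed and 214, 192 and 195 CPM in fasted replicates 1 to 3. The rise was 2.98-fold and larger than the spread in either group (edgeR log2 fold change 1.57 with SE 0.12, adjusted p = 2.29e-05). The folate and flavin carrier Slc25a32 rose 2.08-fold, to 24.9 to 29.4 CPM from 11.4 to 14.7 CPM (edgeR log2 fold change 1.05 with SE 0.13, adjusted p = 0.000293).

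Slc25a17, which serves peroxisomes rather than mitochondria and carries coenzyme A and other cofactors, had 84.6, 65.4 and 58.7 CPM in refed and 28.5, 31.1 and 35.1 CPM in fasted replicates 1 to 3. All fasted values were lower, by 2.20-fold (edgeR log2 fold change -1.14 with SE 0.16, adjusted p = 0.00044). Slc25a16, linked to coenzyme A transport, rose slightly (edgeR log2 fold change 0.40 with SE 0.10, adjusted p = 0.00981), a call that was lost with library totals and without refed replicate 1 or refed replicate 2 (edgeR adjusted p = 0.0535 without either; range over all alternatives 0.00106 to 0.798). Slc25a26, the carrier of the methyl donor S-adenosylmethionine, stood at 5.71 ± 0.389 CPM in refed and 5.92 ± 0.6 CPM in fasted liver and did not pass (SD, n = 3; edgeR log2 fold change 0.05 with SE 0.15, adjusted p = 0.774).

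The tested carriers that serve oxidative phosphorylation directly were called higher, Slc25a3 and Slc25a5 by less than 2-fold and the low Slc25a4 by more. Slc25a3, the phosphate carrier, had 308, 301 and 274 CPM in refed and 579, 567 and 437 CPM in fasted replicates 1 to 3, all fasted values being higher (edgeR log2 fold change 0.84 with SE 0.15, adjusted p = 0.00185). Slc25a5, the widespread form of the ADP/ATP carrier, had 318, 305 and 276 CPM in refed and 448, 434 and 361 CPM in fasted replicates 1 to 3 (edgeR log2 fold change 0.47 with SE 0.14, adjusted p = 0.0203). That call was lost with library totals and without refed replicate 2, refed replicate 3, fasted replicate 1 or fasted replicate 2 (edgeR adjusted p = 0.0755, 0.0837, 0.0588 and 0.059 for those libraries in turn; range over all alternatives 0.00152 to 0.521). Slc25a4, the form known from heart and muscle, was low, at 2.40, 2.53 and 2.67 CPM in refed and 6.06, 4.10 and 7.16 CPM in fasted replicates 1 to 3, and rose 2.28-fold (edgeR log2 fold change 1.19 with SE 0.23, adjusted p = 0.00235). The skeletal muscle markers looked up with it summed to at most 0.311 CPM in any library. Slc25a31, the germ cell form, had 1 read in all 6 libraries together.

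Carboxylate carriers changed by less than 2-fold each. Slc25a11, the oxoglutarate/malate carrier of the malate-aspartate shuttle, rose from 70.6 ± 4.12 to 108 ± 5.85 CPM (SD, n = 3; edgeR log2 fold change 0.61 with SE 0.11, adjusted p = 0.00141). The dicarboxylate carrier Slc25a10, which exchanges malate and succinate for phosphate, rose from 184 ± 13.0 to 244 ± 5.84 CPM (SD, n = 3; edgeR log2 fold change 0.40 with SE 0.12, adjusted p = 0.0175). That call was lost with library totals, with no filter on low counts and without refed replicate 1 or refed replicate 2 (edgeR adjusted p = 0.0878 and 0.0849 for those libraries; range over all alternatives 0.00108 to 0.755). Slc25a21, the oxodicarboxylate carrier of lysine and tryptophan breakdown, fell from 9.22 ± 0.709 to 6.42 ± 0.636 CPM (SD, n = 3; edgeR log2 fold change -0.52 with SE 0.14, adjusted p = 0.0126).

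Of the uncoupling proteins, which let protons or metabolites cross the membrane, only Ucp2 passed the filter on low counts. It stood at 17.5, 12.2 and 12.6 CPM in refed and 17.7, 32.9 and 11.7 CPM in fasted replicates 1 to 3. Fasted replicate 2 was the one library that lay apart, and the gene did not pass (edgeR log2 fold change 0.56 with SE 0.36, adjusted p = 0.209). Without fasted replicate 3 it did pass (log2 fold change 0.85, edgeR adjusted p = 0.0423; range over all alternatives 0.0423 to 0.815), and without fasted replicate 2 its log2 fold change was 0.07. In liver Ucp2 is known from Kupffer cells as well as hepatocytes. Of the 8 Kupffer cell and macrophage markers, Emr1 fell and the other 7 did not pass, though Timd4 and Csf1r were called lower without fasted replicate 3 (edgeR adjusted p = 0.0235 and 0.0317; range over all alternatives 0.0235 to 0.297 and 0.0317 to 0.685). Their summed level was 60.3 to 80.1 CPM in refed and 17.9 to 84.2 CPM in fasted libraries. Their lowest sum was that of fasted replicate 1, and their part in the Ucp2 values was not tested. Ucp1, the heat-producing form of brown fat, had 1 read and Ucp3, the muscle form, had 4 reads in all 6 libraries together.

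Of the more distant relatives of the uncoupling proteins, Slc25a27 and Slc25a14 had at most 3.29 CPM in any library. Slc25a27 (UCP4) had 0.473, 0.422 and 0.568 CPM in refed and 3.12, 2.30 and 3.29 CPM in fasted replicates 1 to 3 and rose 5.91-fold (edgeR log2 fold change 2.56 with SE 0.26, adjusted p = 0.000102). Slc25a14 (UCP5) fell from 1.75 ± 0.205 to 0.924 ± 0.287 CPM (SD, n = 3; edgeR log2 fold change -0.92 with SE 0.29, adjusted p = 0.0247). That call was lost without refed replicate 1, refed replicate 2 or fasted replicate 2 (edgeR adjusted p = 0.0601, 0.0852 and 0.0536; range over all alternatives 0.00905 to 0.0928). Slc25a30, a relative first described in kidney, had the largest SE of the 37 tested members. It had 32.3, 25.9 and 5.82 CPM in refed and 30.8, 17.4 and 4.48 CPM in fasted replicates 1 to 3, so that the replicate numbered 3 was the lowest in each group, and it did not pass (edgeR log2 fold change -0.28 with SE 0.78, adjusted p = 0.773).

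Members of less settled role held the largest changes in both directions. Beside Slc25a47, Slc25a34 rose, from 1.96, 2.73 and 2.16 CPM in refed to 16.1, 13.1 and 3.87 CPM in fasted replicates 1 to 3. Fasted replicate 3 was the nearest to the refed range (edgeR log2 fold change 2.27 with SE 0.49, adjusted p = 0.00533). Slc25a46, which sits in the outer membrane and takes part in mitochondrial dynamics, had 35.6, 38.2 and 40.4 CPM in refed and 82.6, 81.3 and 67.0 CPM in fasted replicates 1 to 3, a 2.02-fold rise (edgeR log2 fold change 1.02 with SE 0.12, adjusted p = 0.000199). Slc25a45 fell from 38.1, 32.9 and 27.2 CPM in refed to 3.93, 4.78 and 6.18 CPM in fasted replicates 1 to 3. No fasted library reached the refed range, and the fall was 6.59-fold (edgeR log2 fold change -2.72 with SE 0.20, adjusted p = 2.4e-05). Slc25a35 had the lowest log2 fold change of all members but a mean under 1 CPM, and is named after its values were seen. It had 48, 58 and 41 reads in refed and 1, 6 and 12 reads in fasted replicates 1 to 3 (edgeR log2 fold change -2.87 with SE 0.54, adjusted p = 0.00221), and a log2 fold change of -3.70 without fasted replicate 3. Slc25a48 stood at 13.4, 13.5 and 14.3 CPM in refed and 10.9, 9.72 and 16.4 CPM in fasted replicates 1 to 3 and did not pass (edgeR log2 fold change -0.15 with SE 0.20, adjusted p = 0.528), but was called lower without fasted replicate 3 (log2 fold change -0.41, edgeR adjusted p = 0.0181; range over all alternatives 0.0181 to 0.993). Slc25a43 had 6 to 9 reads in each library and was not tested.

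Slc25a45 (ENSMUSG00000024818) lies on chromosome 19 from 5877808 to 5885766 (mm9). Its promoter is shown as that of the largest fall among members of at least 1 CPM (RefSeq, GRCm38.p6), and the capitals are again a nuclear receptor half-site.
Slc25a45 (chr19:5877572-5877821, plus strand): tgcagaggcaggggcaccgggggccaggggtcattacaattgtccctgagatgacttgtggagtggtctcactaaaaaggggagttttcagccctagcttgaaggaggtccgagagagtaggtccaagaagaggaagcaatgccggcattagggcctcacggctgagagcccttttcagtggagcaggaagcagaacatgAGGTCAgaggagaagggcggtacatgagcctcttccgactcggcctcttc

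Levels of different genes were compared per kb of gene length. By the deposited signal per kb, Slc25a39 was highest in refed liver at 17920 ± 1169, followed by Slc25a23 at 12200 ± 455 and Slc25a5 at 10320 ± 764 (SD, n = 3). In fasted liver Slc25a47 was highest at 95160 ± 33050, followed by Slc25a39 at 30580 ± 3178 (SD, n = 3). Slc25a22 and Slc25a25 came next, at 22970 ± 1206 and 22370 ± 11130, within their spread of each other (SD, n = 3). Slc25a47 thus moved from rank 7 to rank 1 among the 43 members, and Slc25a23 from rank 2 to rank 11. The lengths behind these values were far shorter than the annotated genes for some members: 0.789 kb for Slc25a25, whose exons cover 7.86 kb in GENCODE M21. With those exon lengths, an alternative chosen after seeing the data, Slc25a5 was highest in refed liver, Slc25a47 moved from rank 3 to rank 1 and Slc25a23 from rank 5 to rank 16. Slc25a47 therefore ranked first in fasted liver with either length, while the order below it depends on the length used.

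**Figure D3:**
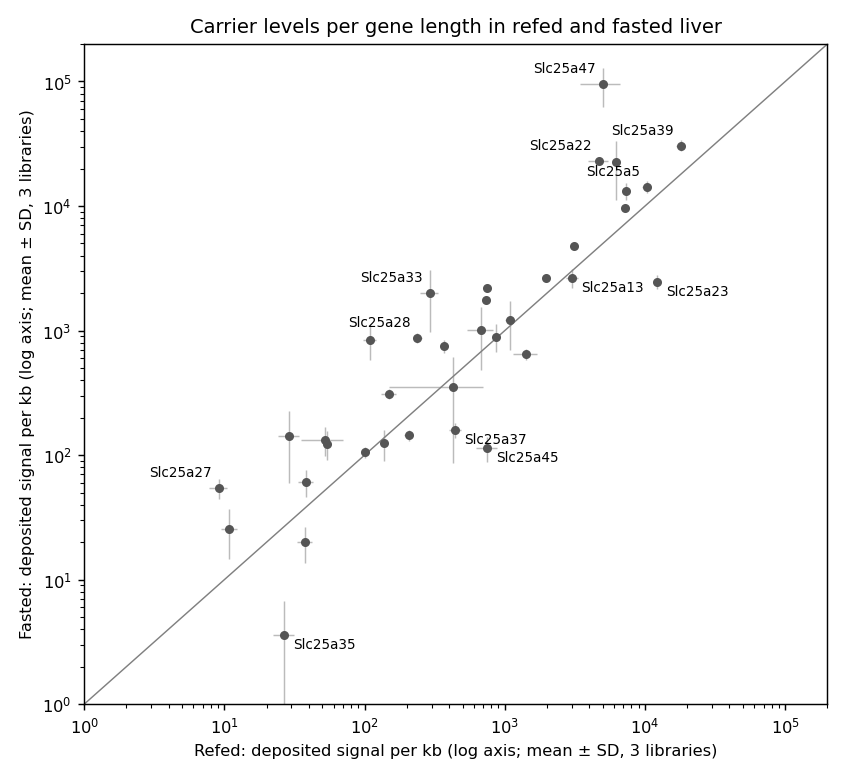
Deposited signal per kb of gene length in refed (horizontal) and fasted (vertical) liver for 36 of the tested carriers, both on log axes, as mean ± SD of 3 libraries. The line marks equal levels. Slc25a47 rises from 5020 to 95160, and Slc25a23 falls from 12200 to 2474.

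Of 7 pairs of carriers for the same substrate, 4 had shares that did not overlap between the groups. Among single genes, CPM values did not overlap in 67.2% of all tested genes, and shares of other gene pairs were not computed. Slc25a28 made up 31.8, 39.5 and 33.9% of the mitoferrin signal per kb in refed and 86.8, 83.1 and 83.9% in fasted replicates 1 to 3. With exon lengths its share was 24.0% ± 3.19 and 76.2% ± 2.69 (SD, n = 3), so Slc25a37 was the higher partner in refed and Slc25a28 in fasted liver with either length. Slc25a25 made up 35.2, 35.1 and 31.5% of the summed signal per kb of Slc25a25 and Slc25a23 in refed and 93.2, 91.7 and 77.8% in fasted replicates 1 to 3. With exon lengths this was 25.2% ± 1.77 and 82.6% ± 11.1 (SD, n = 3), and here too the higher partner changed with either length. Slc25a12 made up 19.6% ± 1.57 of the aspartate/glutamate carrier signal per kb in refed and 40.0% ± 4.50 in fasted liver (SD, n = 3). With exon lengths its share was 3.17% ± 0.308 and 8.28% ± 1.45 (SD, n = 3), so Slc25a13 stayed the higher partner and the size of the share depends on the length. Slc25a36 made up 9.36, 15.8 and 21.5% of the pyrimidine nucleotide carrier signal per kb in refed and 6.67, 8.11 and 5.10% in fasted replicates 1 to 3. With exon lengths this was 1.72% ± 0.768 and 0.658% ± 0.158 (SD, n = 3). In the other pairs the minor partner was at 1.21% or less of the signal per kb in every library and its share overlapped between the groups. These were Slc25a40 beside Slc25a39, at 0.213% ± 0.0213 and 0.198% ± 0.0333 (SD, n = 3), Slc25a4 beside Slc25a5, and Slc25a18 beside Slc25a22. All shares are descriptions and were not tested.

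**Figure D4:**
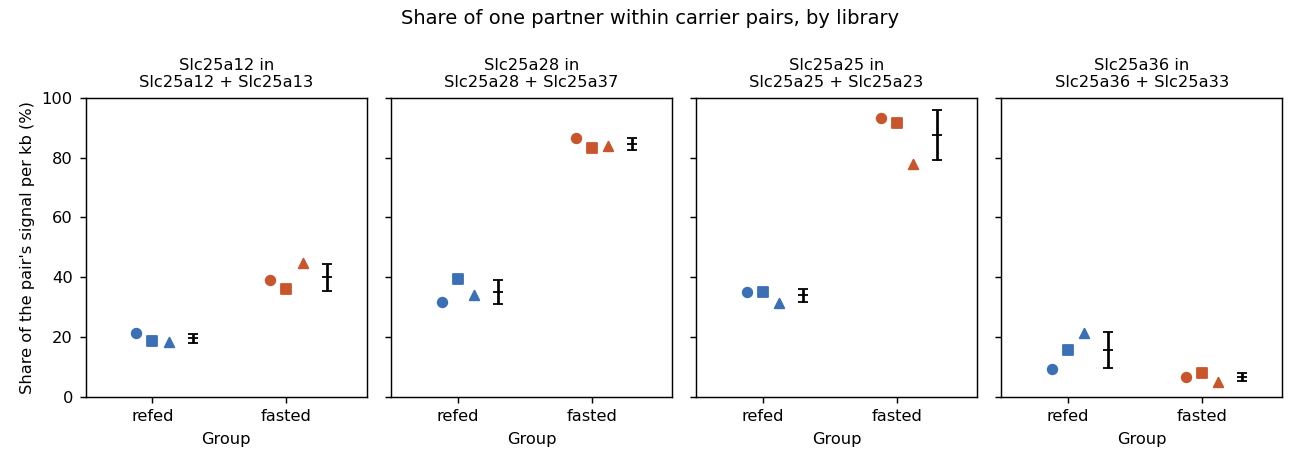
Share of the first-named partner in the summed deposited signal per kb of a pair, in percent, for each library of refed (blue) and fasted (orange) liver; marker shapes give replicates 1 to 3 and black bars mean ± SD. Slc25a28 goes from 31.8 to 39.5% in refed to 83.1 to 86.8% in fasted liver, and the level of a share depends on the gene lengths used.

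Other mitochondrial transport proteins were taken from a list assembled by function. Of its 23 tested genes, 9 rose, 5 fell and 9 did not pass, so 60.9% were called, close to the 59.4% of all tested genes. The median log2 fold change was 0.15 against 0.61 for the carriers and 0.00 for all tested genes. That difference between lists was not tested. Both subunits of the mitochondrial pyruvate carrier rose, Mpc1 (listed as Brp44l; edgeR log2 fold change 0.81 with SE 0.16, adjusted p = 0.0025) and Mpc2 (listed as Brp44; edgeR log2 fold change 0.38 with SE 0.12, adjusted p = 0.0223). The outer membrane channels Vdac1 and Vdac2 rose, with log2 fold changes of 0.49 and 0.76, and Vdac3 did not pass. The ABC transporters Abcb8 and Abcb10 went apart, with log2 fold changes of 1.12 and -2.58 (edgeR adjusted p = 8.73e-05 and 1.98e-05). Abcb10 is known for its part in heme synthesis. Of the carriers that were set aside, Slc25a15 rose (edgeR log2 fold change 1.01 with SE 0.16, adjusted p = 0.00086), Slc25a1 fell (edgeR log2 fold change -0.98 with SE 0.12, adjusted p = 0.00024) and Slc25a20 did not pass. Slc25a20, the carnitine/acylcarnitine carrier, had 111, 123 and 118 CPM in refed and 238, 247 and 82.9 CPM in fasted replicates 1 to 3 (edgeR log2 fold change 0.69 with SE 0.37, adjusted p = 0.143). Fasted replicate 3 alone lay below the refed range. Without it the gene was called higher (log2 fold change 1.05, edgeR adjusted p = 1.68e-05; range over all alternatives 1.68e-05 to 0.359), as was Vdac3 (log2 fold change 0.29, edgeR adjusted p = 0.0388; range 0.0388 to 1).

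Enzymes that work with the carriers in the redox shuttles between cytosol and matrix rose in 3 of 6 tested genes (Got1, Mdh1 and Mdh2). Gpd1 fell and Got2 and Gpd2 did not pass, so 66.7% were called, beside 59.4% of all tested genes. Gpd1 had 330, 364 and 370 CPM in refed and 246, 201 and 78.4 CPM in fasted replicates 1 to 3. Its call was lost under at least 1 alternative (edgeR log2 fold change -1.02 with SE 0.37, adjusted p = 0.046; range over all alternatives 0.00125 to 0.154). Got1, the cytosolic aspartate aminotransferase of the malate-aspartate shuttle, had the largest change of the 6 enzymes, a log2 fold change of 5.38 (edgeR adjusted p = 2.39e-06). The malate dehydrogenases Mdh1 and Mdh2, cytosolic and mitochondrial partners of Slc25a11 in the malate-aspartate shuttle, had log2 fold changes of 0.52 and 0.61 (edgeR adjusted p = 0.012 and 0.00622). Over both lists together 12 genes rose and 6 fell, or 41.4% and 20.7%, beside 29.2% and 30.2% of all tested genes. With library totals 7 rose and 8 fell, or 24.1% and 27.6%, beside 21.7% and 38.3% of all tested genes. Without fasted replicate 3, 15 rose and 6 fell, or 51.7% and 20.7%, beside 31.6% and 32.7% of all tested genes. Got2 was the third added call beside Slc25a20 and Vdac3 (log2 fold change 0.34, edgeR adjusted p = 0.015; range over all alternatives 0.015 to 0.985).

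**Figure D5:**
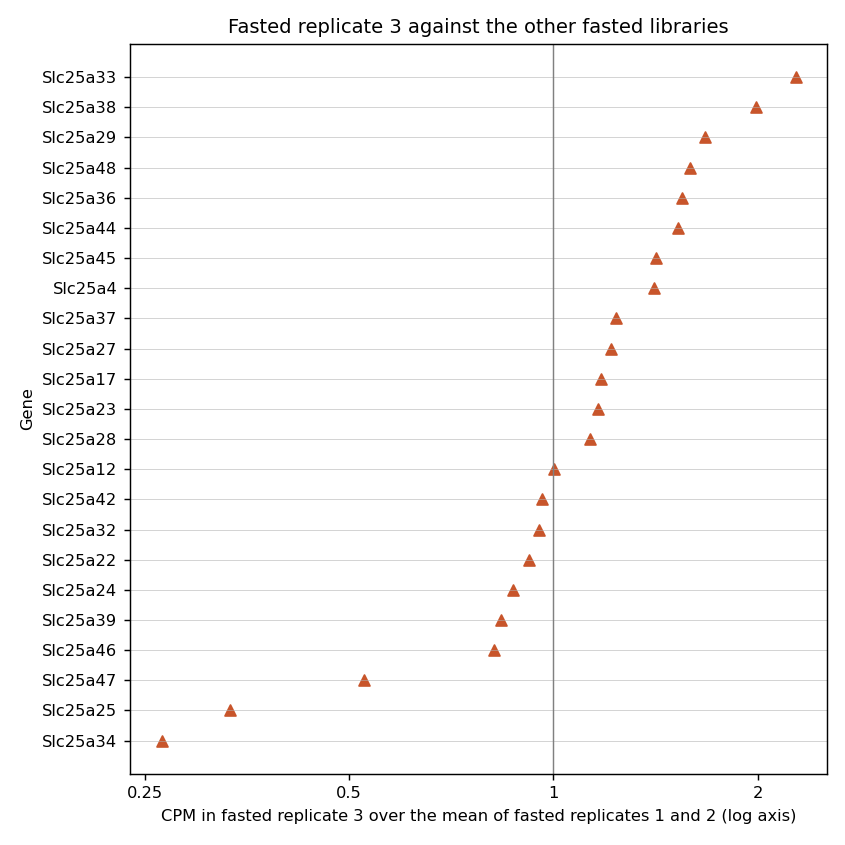
CPM of fasted replicate 3 divided by the mean of fasted replicates 1 and 2, on a log axis, for 23 of the carriers named by rule. Slc25a34, Slc25a25 and Slc25a47 lie lowest, at 0.264, 0.334 and 0.526, and Slc25a33 lies highest at 2.28.

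Among the carriers, fasted replicate 3 departed from the other fasted libraries in both directions, about as often as among all tested genes. Fasted replicate 3 lay below both other fasted libraries in 16 and above both in 15 of the 37 tested members, beside 39.0% and 40.5% of all tested genes. Slc25a34, Slc25a25 and Slc25a47 were the named members furthest below, at 0.264, 0.334 and 0.526 times the mean of the others. Slc25a33 and Slc25a38 were furthest above, at 2.28 and 1.99 times. Without this library 23 members rose and 9 fell, where 64.3% of all tested genes were called.

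Some members may share reads with other genes. When the longest GENCODE M21 transcript of each member was cut into 50-base words, 46.6% of those of Slc25a5 also occurred in transcripts of 9 other genes, so its counts are uncertain. The share was 25.8% for Slc25a35, 12.6% for Slc25a33, where the other gene is Gm13068, an antisense gene, and 11.8% for Slc25a36. For Slc25a47, Slc25a25, Slc25a22, Slc25a28, Slc25a29, Slc25a12 and Slc25a45 it was at most 2.62%. In the deposited coordinates Slc25a23 overlaps Crb3, which had 2241 reads over the 6 libraries beside 35413 of Slc25a23. Slc25a11 overlaps Rnf167, which had 4944 beside 17841 of Slc25a11, and Slc25a26 overlaps Lrig1, which had 6119 beside 1168 of Slc25a26. Reads in such stretches cannot be assigned without the strand, and strand handling is not stated in these sources.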

How the data were processed

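The authors deposited raw read counts per Ensembl gene, per the file headers, and these counts were tested. Per the file headers they also deposited a normalized signal, and that signal per kb of gene length. The authors' deposited table further holds a log2 fold change, a p-value and an adjusted p-value. Tools listed in the submitters' processing notes, with no roles, are HTSeq 0.5.4p3, TopHat2 2.0.10, DESeq2 1.0.19 and Bowtie2 2.1.0, and the build is mm9. The sources used here do not state how strand was handled or which annotation was used.

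Counts were filtered with filterByExpr (minimum count 10), scaled by TMM and fitted by edgeR 4.0.16 (glmQLFit, robust, group as the only term) in R 4.3.3, after the code was tested on simulated data. P-values were Benjamini-Hochberg adjusted over 13248 genes and called under 0.05. The SE is the log2 fold change over the square root of F. Alternatives were DESeq2 1.42.0, limma-voom (limma 3.58.1), other scalings and filters, glmTreat, a replicate block and each library left out. No 2 libraries agreed within sampling noise (chi-square per gene at least 26.8).

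Members and lists were chosen with earlier results of these data known. Named by rule were Slc25a25, Slc25a47, members of at least 1 CPM called with at least a 2-fold change, the 3 highest per kb and the 3 of at least 10 CPM with the smallest change. Other members are given by role. One member, which stays in the counts, is not reported here by name or in the plots. Promoters are from RefSeq (GRCm38.p6), and 34 of 43 members matched by symbol.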

Additional observations from a re-analysis of the deposited data

How the results depend on the processing

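No member changed direction with a call under any of the 15 alternatives. Of the 37 tested members, 22 rose and 8 fell also with RLE factors, upper quartile factors, no filter (43 members tested), DESeq2, limma-voom and the replicate block. Of all genes tested in these settings, 36.1% were called with no filter, 55.4% under the replicate block and 59.2% to 59.6% in the others. With a mean of at least 5 CPM, 17 of 30 rose and 6 fell, where 65.2% of all genes tested in that setting were called. Against a log2 change of 0.5 (glmTreat), 16 members rose and 6 fell, all genes gave 2338 higher and 2591 lower, and 6 of the other transport and shuttle genes rose, or 7 with library totals, against 12 in the main analysis. With 1 library left out, 17 to 23 members rose and 7 to 9 fell, where 48.3% to 64.3% of all tested genes were called. Slc25a5, Slc25a10, Slc25a14, Slc25a16, Slc25a24 and Slc25a40 lost their call without at least 1 library, and Slc25a11 and Slc25a21 lost it under glmTreat alone. The rank of Slc25a47 per kb in refed liver was 7, between 7 and 8 with 1 library left out, and 3 with exon lengths. Samples with the same number did not deviate together over all tested genes (correlations of -0.04, -0.04 and -0.09 over 13248 genes). The labels do not say that equal numbers pair samples, and correlations with 3 samples per group cannot decide it. Under the replicate block 22 members rose and 8 fell, where 55.4% of all tested genes were called. Slc25a30, lowest in replicate 3 of both groups, had an edgeR adjusted p of 0.0912 under the block and 0.773 in the main fit. In the authors' deposited table, the same 30 of 37 members had an adjusted p under 0.05, each in the direction found here. That table comes from the same libraries, so it is no independent check, and its share of all genes called was not computed.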
